A study of Mus musculus with 18 samples.

Results

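T cell receptor gene segments are the V, D, J and C pieces of DNA from which the chains of the antigen receptor of T cells are built. Regions of accessible chromatin were taken as members where the deposited annotation listed a symbol of such a segment (Tra, Trb, Trd or Trg followed by its class) among the genes a region overlaps or lies near. This gave 136 of 65983 regions, or 0.206%, which held 811 of 409588 windows, or 0.198%. A window is the small stretch of genome in which reads were counted, and neighbouring windows were joined into a region. The regions named 165 of the 270 segments in the RefSeq gene table, and all 165 symbols were found there. One signalling adaptor gene, Tradd, shares the opening letters of a segment symbol, and its 4 regions were left out.

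The regions come from ATAC-seq, an assay in which a transposase inserts sequencing adapters into open chromatin, of bulk mouse CD4 T cells. Naive cells had been activated with anti-CD3/CD28 beads in medium with IL2, IL12 and anti-IL4, which steers them towards the Th1 fate. The 18 samples formed 6 groups of 3, namely wild-type (WT) and Id3 knockout (KO) cells, each as Th1 at 24 h, Tcmp at 72 h and Teff at 72 h. The Id3 protein binds and blocks E proteins, transcription factors that act in lymphocyte development and at antigen receptor loci. The meaning of Tcmp and Teff, the strain and age of the mice, the way the knockout was made, and the origin of the 3 samples of a group (separate mice or cultures, or not) were not given in the sources used here.

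One set of regions served all 6 comparisons in the authors' deposited table, and the table holds no value for a single sample. Every count below therefore describes that one set, and not KO against WT, 24 h against 72 h, or Tcmp against Teff. The fold changes and p-values of the table were not used for the segments. In each of the 6 comparisons the window p-value fell 0 times along the row order of the genome, over 25375 to 53444 regions in which it could be read. Positions, widths and window numbers did belong together, since the windows filled the stated width exactly in 64503 of 65983 regions, 133 of them at receptor segments. The knockout of Id3 could not be checked without values per sample. The depth of the libraries is unknown for the same reason, and a segment with no region may be closed or may have been under the authors' threshold.

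A functional V exon is made by joining one V to one J segment, or V to D to J, through recombination signal sequences beside each segment. The Tra and Trb loci encode the chains of the receptor of CD4 T cells, whereas Trd and Trg encode the chains of gamma-delta T cells. The Trd segments lie inside the Tra locus and are cut out when Tra is rearranged. Joining usually deletes the DNA between the joined segments, although segments in inverted orientation, such as Trbv31, are joined by inversion and keep it. For a segment in bulk cells, fewer DNA copies and less accessibility per copy cannot be told apart.

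The joined Tra and Trd locus held 105 of the 136 regions, Trb held 25 and Trg held 6. The Tra/Trd regions ran from position 52664951 to 54460300 of chromosome 14, those of Trb from 40867751 to 41540700 of chromosome 6, and those of Trg from 19361701 to 19521550 of chromosome 13, in the build GRCm39 named in the submitters' processing notes. Counting also the regions in these spans that named no segment, there were 115 regions in 1795 kb at Tra/Trd, 33 in 673 kb at Trb and 6 in 159.8 kb at Trg. This is 6.41, 4.90 and 3.75 regions per 100 kb, beside 2.49 for all regions of the table. The 500 kb on each side held 8.5 regions per 100 kb at Tra/Trd, 2.6 at Trb and 1.2 at Trg. Density inside the locus was thus below its surroundings at Tra/Trd and above them at Trb and Trg. Each span was set to begin and end at a region, which raises the density inside, and the flanks were not. The effect is largest at Trg, with 6 regions, so its higher density is partly built in. With flanks of 250 kb the order at Tra/Trd turned, since these held 6.0 regions per 100 kb. The regions covered 3.49%, 2.65% and 2.16% of the spans.

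**Figure D1:**
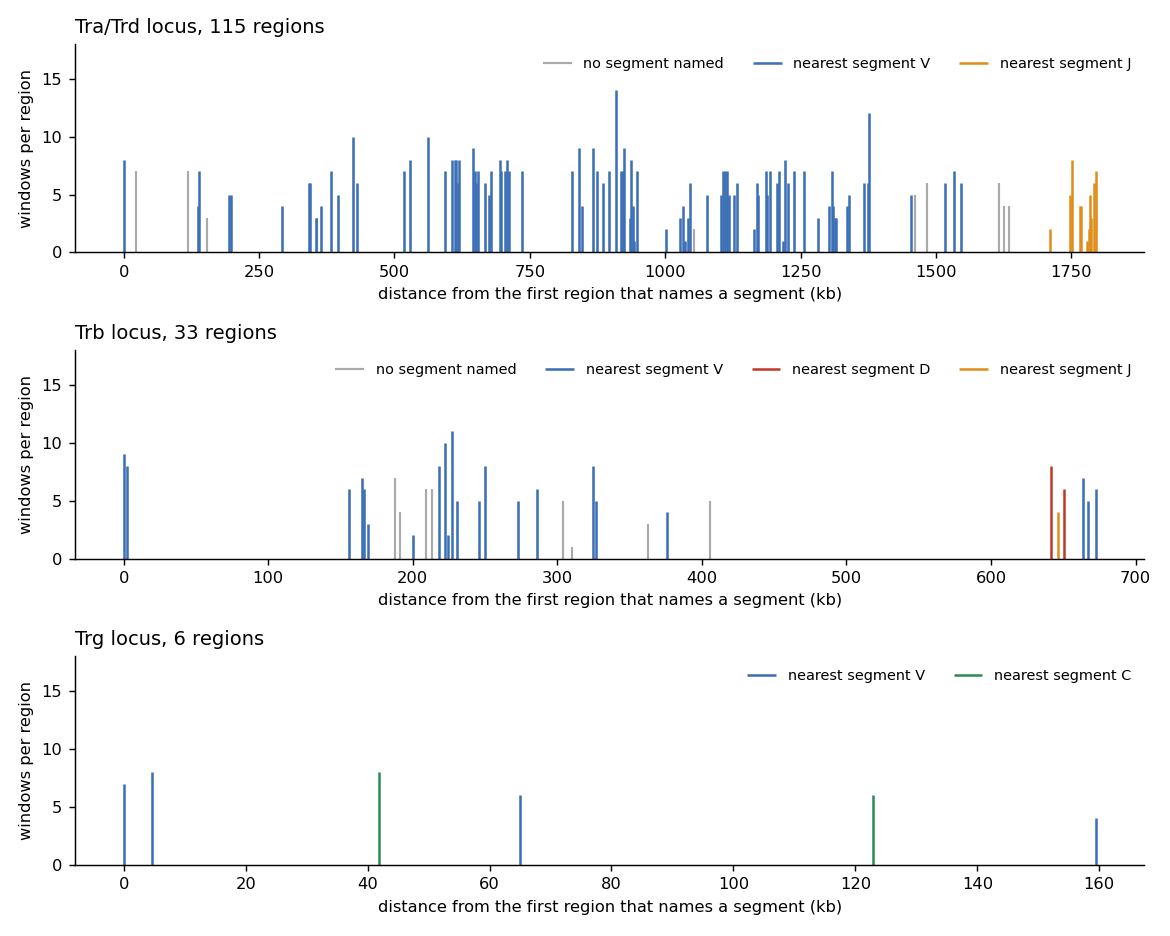
Regions of accessible chromatin along each receptor locus. Each vertical line is 1 region, its height the number of windows and its place the distance in kb from the first region that names a segment of that locus; colours give the class of the nearest segment and grey lines name no segment. The 115 regions at Tra/Trd are spread over the V part with a group of J regions at the right end, the 33 at Trb leave a gap of 235.8 kb between a region that names no segment and the first D region, and Trg has 6 regions.

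Regions were unevenly spaced along the loci. The median gap between neighbouring regions was 6.6 kb at Tra/Trd, 5.4 kb at Trb and 36.0 kb at Trg. The widest stretch of Tra/Trd with no region was 94.7 kb long, from 52863300 to 52958001 on chromosome 14, among the V segments. At Trb it was 235.8 kb, from 41273600 to 41509451 on chromosome 6, which separates most V segments from the D, J and C segments and in which the trypsinogen genes are known to lie. At Trg it was 57.35 kb, between Trgv3 and the region 3′ of Trgc2.

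In size the receptor regions were close to the rest. Their median width was 550 bp (quartiles 500 and 600 bp) with 6 windows (quartiles 5 and 7), beside 550 bp (500 and 650 bp) and 6 windows (5 and 8) over all regions. The range was 300 to 1000 bp and 1 to 14 windows. Only 4 of the 136 regions, or 2.94%, had a single window, beside 3.81% of all regions. The 120 regions nearest a V segment had a median of 6 windows (quartiles 5 and 7), and the 12 nearest a J segment had 4 windows (quartiles 2.75 and 5.25). The J regions were the narrower ones, with a median of 450 bp for the 11 at Tra/Trd, although the ranges of both classes overlapped.

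Most of the receptor regions lay on an exon of a segment. An exon of a segment was overlapped by 72 of the 136 regions, or 52.9%, beside 30.7% of all regions that overlapped an exon of any gene. The bases of these shares differ, which in itself raises the first. Members had to overlap or lie near a segment, whereas all regions include those with no gene nearby. A further 29 regions, or 21.3%, carried only the promoter label of a segment, and 35, or 25.7%, were listed only as near one. In the table the promoter label reached 2922 bp upstream of a segment, and the nearest upstream region without it was 3135 bp away. The label also reached downstream, as for a region 923 bp 3′ of Traj25. The largest listed distance was 4960 bp. Segments are short and closely packed, so 1 region can carry the labels of several. Of the 101 regions that overlapped a segment or its promoter, 81 did so for 1 segment, 11 for 2, 1 for 3, 3 for 4, 3 for 5 and 2 for 8 segments.

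**Figure D2:**
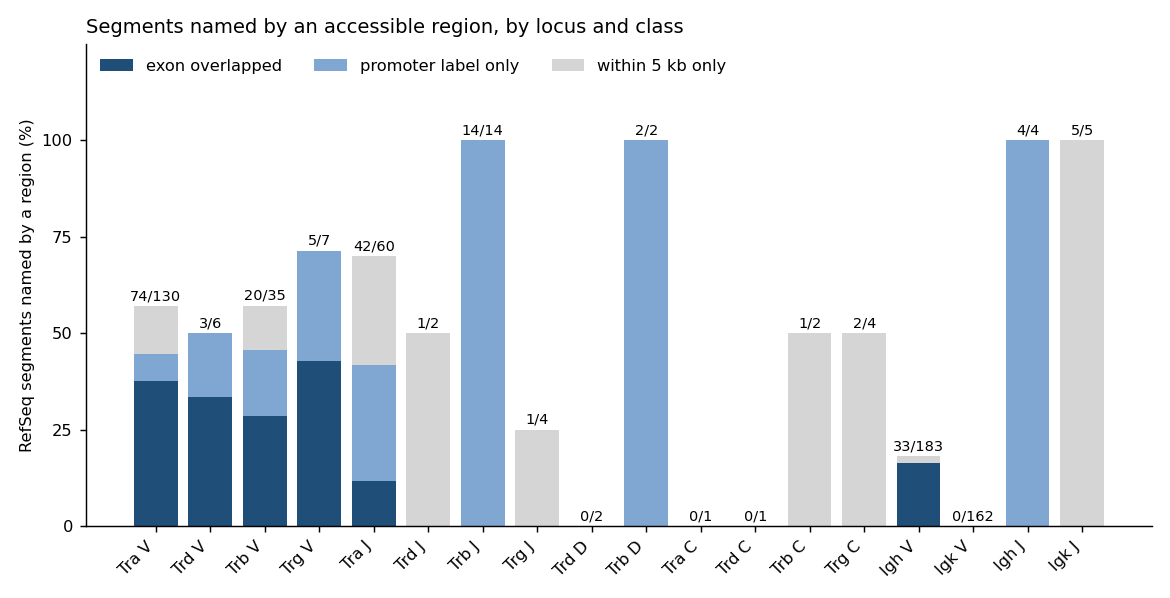
Share of the RefSeq segments of each locus and class that at least 1 region named, in percent; the numbers above the bars are segments named of segments in RefSeq. Dark blue is an exon overlap, light blue a promoter label only and grey a listing as near only. V segments of all receptor loci reach 50% or more, whereas immunoglobulin V segments stand at 33 of 183 (heavy chain) and 0 of 162 (kappa).

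The V segments, which encode most of the antigen-binding domain and carry their own promoters, made up most of the list. Regions named 102 of the 178 V segments, or 57.3%, and 64 of these 102 were overlapped in an exon. By locus the V share was 74 of 130 at Tra, 20 of 35 at Trb, 5 of 7 at Trg and 3 of 6 at Trd. Of V segments that RefSeq does not mark as pseudogenes, 95 of 148 (64.2%) had a region and 64 had one on an exon. Of the 30 V pseudogenes, 7 (23.3%) had a region and 0 had one on an exon. The 7 were Trav3-2, Trav5-2, Trav23, Trbv9, Trbv10, Trbv18 and Trbv29, and only Trav5-2 and Trbv10 had a promoter label. Trav5-2 had that label from a region 102 bp upstream, which also carried the label of Trav12-2, 1472 bp away. Among the 15 Trb V segments without a region, 6 were not pseudogenes: Trbv13-3, Trbv16, Trbv20, Trbv21, Trbv26 and Trbv30. No region was matched by symbol to 56 Trav segments. Genes listed by an Ensembl identifier with no symbol were not matched to a segment, so the counts of segments with a region are lower bounds. Regions starting at 41055651 and 41058801 of chromosome 6, between Trbv5 and Trbv9, carried promoter labels of such genes. The only segments RefSeq lists there are the pseudogenes Trbv6, Trbv7 and Trbv8. Counting by symbol may thus lower the share of pseudogenes more than that of other V segments, on exons too, which was not tested.

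Immunoglobulin segments, which are rearranged in B cells, were counted in the same way for comparison. Regions named 54 of 395 of them (13.7%), against 165 of 270 receptor segments (61.1%). For V segments alone the shares were 33 of 183 at the heavy chain locus Igh and 0 of 162 at the kappa locus. The immunoglobulin J segments were named in 4 of 4 cases at Igh, 5 of 5 at Igk and 0 of 5 at the lambda locus Igl. None was overlapped in an exon: those at Igh had a promoter label only and those at Igk a near listing only. These are counts of named segments in 1 region set, with no test, and how much V segments of either kind share mappable sequence was not tested.

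Most regions on a V segment with a further exon covered its 5′ part. A V segment has a short leader exon followed by the main V exon, and the recombination signal lies after the latter. Of the 65 overlaps of a region with a receptor V exon, 40 left a further exon of the same segment on their 3′ side, at a median of 94 bp (range 1 to 1285 bp). In 9 overlaps the further exon lay on the 5′ side, at a median of 227 bp (85 to 1425 bp). No further exon was listed for the other 16, which include the widest regions at Trav13n-3 and Trav16n. At Tra the split was 33 towards the 5′ part, 6 towards the 3′ part and 11 with no further exon, and at Trb it was 4, 3 and 3.

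The immunoglobulin heavy chain V segments had the opposite placement. Of their 30 exon overlaps, 28 left the further exon on the 5′ side, at a median of 71.5 bp (10 to 265 bp), 0 left it on the 3′ side and 2 had no further exon. Those segments lie on the minus strand, and the sides were read by strand. Trbv31, a receptor V segment on the minus strand, was covered in its 5′ part, with the further exon 233 bp away.

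**Figure D3:**
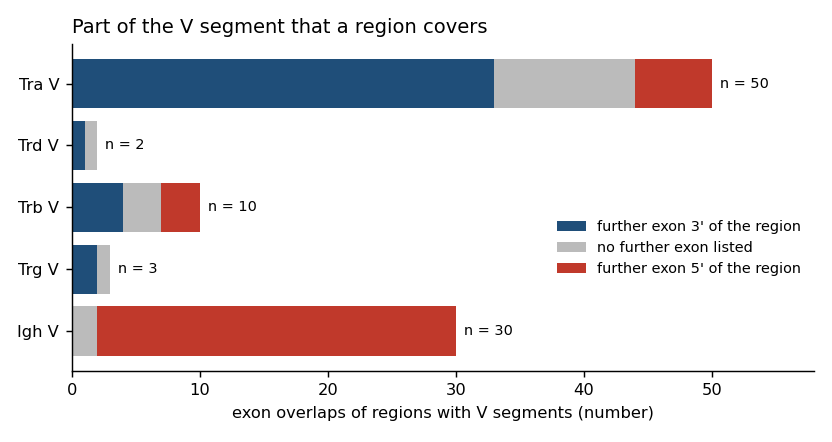
Number of overlaps between a region and a V exon, by locus, split by where the further exon of the same segment lies. Blue is a further exon 3′ of the region (the region covers the 5′ part of the segment), red a further exon 5′ of it, grey none listed; n is the number of overlaps. Blue leads at Tra with 33 of 50, and red leads at Igh with 28 of 30.

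Regions with a promoter label but no exon overlap lay mostly upstream of the V segment. At Tra/Trd there were 18 upstream of their nearest segment, at a median of 1308 bp (8 to 2485 bp). The other 1 lay 2806 bp downstream of its nearest segment, Trav12-1, but carried the label of Trav13-1, and it was 2871 bp upstream of Trav13-1. At Trb all 5 were upstream, at a median of 441 bp (274 to 1528 bp), and the 1 at Trg lay 2194 bp upstream of Trgv4. The region of this kind with most windows, 12 over 850 bp, lay 1896 bp upstream of Trav17 at 54041351 to 54042200. Regions listed only as near a V segment were mostly downstream of it at Tra/Trd, with 19 downstream at a median of 2750 bp and 4 upstream. At Trb 3 such regions were downstream and 4 upstream. The labels themselves shape these splits, since regions up to 2922 bp upstream carried the promoter label. At Tra/Trd, regions listed only as near a V segment therefore began at 3210 bp upstream but at 1134 bp downstream. Their numbers on either side do not show where regions lie more often.

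The V region with most windows, 14 over 950 bp, covered Trav13n-3 at 53574301 to 53575250 of chromosome 14. It also overlapped an exon of a minus-strand gene listed by identifier alone. Summed over all regions that overlapped a segment or its promoter, Trav8d-2 and Trav16n had 16 windows each, Trav11n 15, and Trav16d-dv11 and Trav13n-3 14 each, followed by Trav14d-3-dv8 with 13. All 6 are d or n copies of the duplicated part of the locus. Of the 15 windows of Trav11n, 7 were in a region on an exon of Trav6n-6. At Trb the most windows were those of Trbv13-2 with 16, Trbv24 with 13 and Trbv13-1 with 12, then Trbv12-2 with 11, Trbv12-1 with 10 and Trbv1 with 9. At Trg the order was Trgv4 with 8, Trgv7 with 7, Trgv3 with 6, and Trgv2 and Trgv1 with 4 each, while Trgv5 and Trgv6 had 0. A number of windows is a length of open chromatin and not a level of accessibility.

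In 17 V segments 2 regions overlapped the segment or its promoter, 13 of them at Tra and 4 at Trb. The Tra segments were Trav2, Trav8d-2, Trav16d-dv11, Trav14d-3-dv8, Trav11n, Trav16n, Trav13n-4, Trav14n-3, Trav13-1, Trav4-3, Trav12-2, Trav8-2 and Trav16. Trav2 is an example of 1 region upstream and 1 on the gene, with 4 windows at 1205 bp upstream and 7 windows over an exon. The Trb segments were Trbv4, Trbv13-1, Trbv13-2 and Trbv24. Neighbouring Trb segments shared these regions. The 11-window region at 41095101 to 41095900 covered an exon of Trbv12-2 and carried the promoter label of Trbv13-2, 2430 bp upstream of it. The 10-window region at 41089851 to 41090600 did the same for Trbv12-1 and Trbv13-1, at 2341 bp. Trbv23 and Trbv24 were a further pair of this kind, with a region on Trbv23 that lay 1725 bp upstream of Trbv24.

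The mouse Trav segments fall into copies that arose by duplication, marked in their names by d, by n or by no letter. Regions named 21 of 40 d segments (52.5%), 20 of 34 n segments (58.8%) and 33 of 56 unlettered segments (58.9%). The share overlapped in an exon was 25.0%, 38.2% and 46.4%. Reads from copies with nearly the same sequence can be shared or discarded in alignment, and the sources used here do not say how the authors treated such reads. A copy with no region therefore cannot be told apart from a copy whose reads were placed elsewhere.

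Matching by name gave 32 segments with all 3 copies in RefSeq. All 3 copies were overlapped in 8 of the 32, 2 copies in 5, 1 copy in 16 and 0 copies in 3. These counts rest on symbols, and genes listed by identifier alone were not matched to a copy. Such genes had a promoter label from a region just past Trav14d-3-dv8, Trav14n-3 and Trav14-3. In RefSeq the next segments there are Trav15d-3, Trav15n-3 and Trav15-3, a set counted with 0 copies. Where 1 copy alone was overlapped, it was the unlettered copy in 12 segments, the n copy in 3 and the d copy in 1. The d copy alone was Trav6d-5. Between Trav9n-1 and Trav10n, where RefSeq lists Trav6n-5, a region overlapped an exon of a gene listed by identifier alone. That gene was not matched, so whether the n copy of this set was overlapped too is not known. The 8 complete sets were Trav10, Trav13-1, Trav15-2, Trav4-4, Trav13-3, Trav8-2, Trav16 and Trav14-3. Their windows in the order d, n and unlettered were 7, 8 and 5 for Trav10, 10, 7 and 12 for Trav13-1, 8, 9 and 8 for Trav15-2, and 10, 7 and 7 for Trav4-4. For Trav13-3 they were 8, 14 and 4, for Trav8-2 16, 7 and 11, for Trav16 14, 16 and 6, and for Trav14-3 13, 5 and 4.

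**Figure D4:**
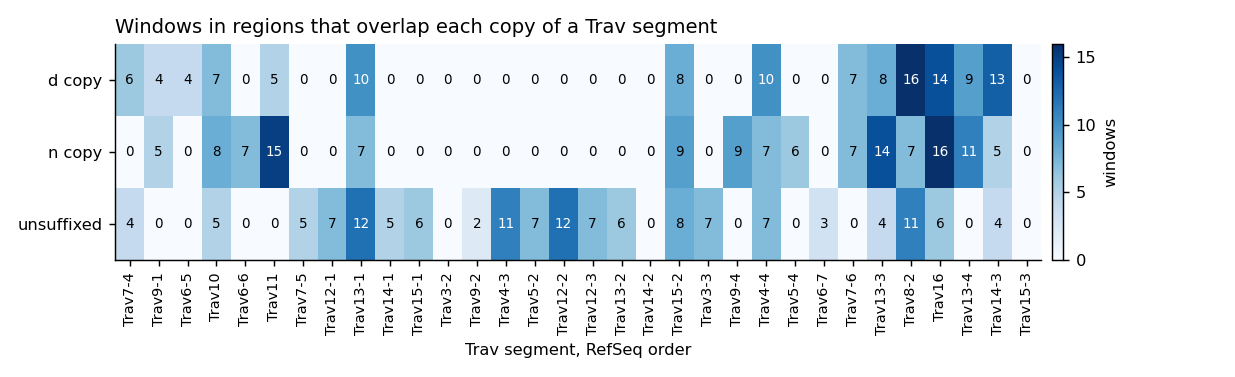
Windows in the regions that overlap each copy of a Trav segment or its promoter, for the 32 segments with a d, an n and an unlettered copy; rows are copies, columns segments in RefSeq order, and darker blue is more windows. Columns filled in all 3 rows number 8, and in 12 columns only the bottom row is filled. Copies were matched by symbol, so an unfilled cell may be a copy listed by identifier alone.

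The distances from region to gene were alike in some sets of copies and not in others, as the following examples show. Regions lay 1444 bp upstream of Trav16d-dv11, 1435 bp upstream of Trav16n and 1411 bp upstream of Trav16, each followed by a second region over the gene itself. The further exon lay 63 bp 3′ of the region at Trav10d, 77 bp at Trav10n and 103 bp at Trav10. At Trav8d-2, Trav8n-2 and Trav8-2 this distance was 64, 47 and 161 bp. The regions on Trav13d-3 and Trav13-3 both covered the 3′ part, with the further exon 91 and 85 bp away on the 5′ side, whereas the region on Trav13n-3 had no further exon listed. Other sets differed. An upstream region lay at 2485 bp from Trav8d-2 and 1582 bp from Trav8-2, and none was listed for Trav8n-2. Trav14d-3-dv8 and Trav14n-3 had one at 1959 and 2234 bp, and Trav14-3 had none. The nearest upstream region of Trav11d was 314 bp away and did not overlap an exon, whereas Trav11n had a region on an exon and a further one at 2179 bp. That further region lay on an exon of the neighbouring Trav6n-6.

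Regions downstream of the genes also had counterparts at some copies only. Downstream of Trav13d-2 and Trav13n-2 a region of 7 windows lay at 1505 and 1527 bp, which is also 3175 and 3135 bp upstream of Trav14d-2 and Trav14n-2. The region on Trav13-2, the unlettered copy, was followed by one at 2195 bp. This second region carried the promoter label of a gene listed by identifier alone, 2508 bp away. In RefSeq Trav14-2 is next after Trav13-2, but the identifier was not matched to it. Trav7d-4 and Trav7-4 had a downstream region at 1502 and 1506 bp, and that of Trav7n-4 lay at 3219 bp. Downstream regions of Trav9n-1 (2779 bp), Trav10n (1134 bp) and Trav11n (3816 bp) had none listed at the d or unlettered copy. The one downstream of Trav9n-1 lay on an exon of a gene with no symbol in the table. Regions lay 2649 bp downstream of Trav14d-3-dv8, 3869 bp downstream of Trav14n-3 and 2750 bp downstream of Trav14-3. Each of these carried the promoter label of a gene with no symbol in the table, 61, 69 and 83 bp away. The windows did not fill the stated width in 3 receptor regions, which were the 8-window region over Trav16d-dv11, the 9-window region over Trav16n and the 3-window region upstream of Trav16. Such regions made up 2.21% of receptor regions and 2.24% of all regions.

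The D segments, short pieces that add diversity to Trb and Trd chains, showed regions at Trb only. Regions lay just 5′ of both Trb D segments. The region at 41509451 to 41510100 of chromosome 6, 650 bp with 8 windows, ended 35 bp upstream of Trbd1. The region at 41518501 to 41519050, 550 bp with 6 windows, ended 47 bp upstream of Trbd2. Promoters are known to lie at both places. The 14 Trb J segments had a promoter label from these 2 regions and none had a region on an exon, so the full share of 14 of 14 reflects 2 regions. Neither of the Trd D segments, Trdd1 and Trdd2, had a region.

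Between the Trb clusters, a region of 450 bp with 4 windows lay at 41514301 to 41514750, 1680 bp 3′ of Trbj1-7. It carried the promoter label of a gene listed by identifier alone, 402 bp away; Trbc1 is next after Trbj1-7 in RefSeq, but the identifier was not matched to it. Trbc2 was listed as near the Trbd2 region, at 4614 bp. A region of 600 bp with 7 windows at 41531201 to 41531800 lay 2825 bp 3′ of Trbv31, in the stretch between Trbc2 and Trbv31 where the Trb enhancer is known to lie. Beyond it were the region on Trbv31, at 41535151 to 41535650 with 5 windows, and one at 41540151 to 41540700 with 6 windows, 4765 bp upstream of Trbv31.

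Of the J segments of Tra, which form a long array, 42 of 60 (70.0%) were named, but only 7 were overlapped in an exon. These were Traj42, Traj23, Traj12, Traj8, Traj7, Traj5 and Traj1. A promoter label alone was given to 18 segments and a near listing alone to 17. For Traj43, Traj13 and Traj2 that label came from a region on the 3′ side, at 596, 647 and 743 bp. The regions were grouped along the array. The 14 segments at its 5′ end, Traj61 to Traj48, had no region, and neither had Traj34 to Traj31. The 5′ segments are the ones known to be used first in thymocytes, and later rearrangements on the same allele remove them. How many alleles still carried them was not measured.

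Within the Tra J array the regions were small. The one on Traj42 (54412851 to 54413350) had 5 windows and that at 54416301 to 54416950, 469 bp upstream of Traj39, had 8, the most of any J region. Regions of 4 windows lay 147 bp upstream of Traj26 and over Traj23. From Traj12 to Traj5 there were 4 regions, with 1 window on Traj12, 2 on Traj8, 5 on Traj7 and 3 on Traj5. Traj1 was overlapped by a region of 6 windows at 54456101 to 54456650.

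The C segments encode the constant part of each chain, and 3 of the 8 in RefSeq were named: Trbc2, Trgc1 and Trgc2, all as near only. Trac, Trdc, Trbc1, Trgc3 and Trgc4 were not named by symbol. Downstream of Traj1 a region of 600 bp with 7 windows, at 54459701 to 54460300, lay 3402 bp 3′ of Traj1 in an intron of a gene listed by identifier alone, with exons of that gene 94 and 148 bp away. In RefSeq the next gene after Traj1 is Trac, but the identifier was not matched to it.

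Past this gene lies the interval towards Dad1 in which the Tra enhancer is known to lie. It held regions of 7 windows at 54464801 to 54465400, 54468401 to 54469000 and 54470601 to 54471200, the last of these nearest to Dad1. A region of 8 windows lay in an intron of Dad1, and another of 8 windows at its promoter. None of these 5 regions named a receptor segment by symbol, so they are not among the 136. The first was listed 3138 bp 3′ of the gene with an identifier alone, which was not matched to Trac.

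The Trd segments proper were named sparsely. Trdv1 was overlapped by 5 windows at 54118751 to 54119250, in its 5′ part with the further exon 140 bp away. Trdv2-2 was overlapped by 7 windows at 54198351 to 54198950, and 6 windows lay 2280 bp upstream of Trdv2-1. Trdj2 had a region of 2 windows 1457 bp to its 3′ side. Trdj1, Trdd1, Trdd2 and Trdc were not named.

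At Trg, whose segments form clusters with their own J and C segments, all 6 regions can be given. Trgv7 was overlapped by 7 windows at 19361701 to 19362300, in its 5′ part with the further exon 56 bp away. The region upstream of Trgv4, at 19366301 to 19366950, had 8 windows and was also 3639 bp downstream of Trgv7. A region of 8 windows at 19403601 to 19404250 lay 2407 bp 3′ of Trgc1. Trgv3 was overlapped by 6 windows at 19426651 to 19427200. Trgc2 had a region of 6 windows 3719 bp to its 3′ side, at 19484551 to 19485100. The last, with 4 windows at 19521101 to 19521550, covered the 5′ part of Trgv2 on the minus strand and lay 2609 bp upstream of Trgv1, on the plus strand, and 4772 bp from Trgj4. Enhancers are known to lie 3′ of Trg C segments. Only 1 of the 4 J segments was named, and none was overlapped.

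Partner genes of the receptor were counted for context. The genes of the CD3 complex that carries the receptor had 3 regions for Cd3e, 3 for Cd3d, 5 for Cd3g and 13 for Cd247, of which 1, 2, 3 and 13 overlapped the gene. The kinases Lck and Zap70 had 10 and 6 regions, and the adaptor Lat had 2. The coreceptor gene Cd4 had 7 regions, 4 of them overlapping, while Cd8a had 1 region that did not overlap it and Cd8b1 had 2, of which 1 overlapped. The recombinase genes Rag1 and Rag2 had 2 regions each, 0 of them with a promoter label. Ptcra, the partner of the beta chain in thymocytes, had 1 region, which did not overlap the gene, and Dntt, which adds bases at the joints, had 4 overlapping regions. With no level per sample, these counts describe where regions lie and do not check the cell label.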

How the data were processed

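ATAC-seq of 18 mouse samples was deposited as 1 table of the authors' own comparisons, with 65983 regions under each of 6 contrasts and no value per sample. The submitters' processing notes name Trim Galore, BWA, Picard, edgeR and GRCm39; versions and roles were not given in the sources used here. Per the file headers, each row gives a region's position, width, number of windows, overlapping and flanking genes, and a p-value. The deposited p-values served only to check their order along the table. The region widths (in bp), window numbers and the running number of the representative window, deposited without a further unit, were used as they stand.

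Rows of 1 contrast were read with Python 3.11.15, pandas 2.3.3 and numpy 2.4.6, and figures were drawn with matplotlib 3.10.9. Segments were counted by symbol, and their order and pseudogene status came from the RefSeq table of another build (GRCm38.p6), which gave no coordinates here. A segment was classed by its closest listing: exon, promoter label, then near. Gaps are the deposited distances. No minimum number of windows above 1 was set, flanks were 500 kb, and no test was run, since the table gives no values of the single replicates. Named were all C and D segments, J segments with a region by range, the 6 V segments per locus with most windows, V segments with at least 2 overlapping regions, and the region with most windows of each locus and class; other segments were chosen after their values were seen, as examples of copies, pseudogenes and shared regions. The members and lists were chosen with earlier results of these data known. Alternatives changed the columns read, the minimum of windows, the pattern, the contrast, the merging of neighbours, the pseudogenes and the flank. Sequences and motifs are not analysed here.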

Additional observations from a re-analysis of the deposited data

How the results depend on the processing

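The 136 regions were the same number in the rows of each of the other 5 contrasts, and 101 when only overlaps counted, 132 with at least 2 windows and 133 when regions under 1 kb apart were joined. Regions listed only as near a segment numbered 35 in all, 25 at Tra/Trd, 8 at Trb and 2 at Trg. With at least 6 windows there were 84 regions, 64 at Tra/Trd and 15 at Trb. The share of RefSeq segments with a region, 61.1%, was 45.6% with overlaps only and 26.3% with exon overlaps only, a setting chosen after seeing the data. At Tra/Trd the share of 59.4% became 42.6% and 28.7% under these settings, and at Trg the share of 53.3% became 33.3% with overlaps only. Exon overlaps alone gave 18.9% at Trb and 20.0% at Trg, and leaving out pseudogenes gave 82.05% at Trb in place of 69.8%. Beside Tra/Trd there were 6.0 to 8.5 regions per 100 kb over the 3 flank lengths, which spans the 6.41 inside. Those beside Trg were 2.0 with flanks of 1 Mb, in place of 1.2. The lower shares follow from counting fewer kinds of listing; the cause of the others was not tested. No paired analysis was possible because values of single samples are not in the table used here. Leaving out replicates, another normalization and the replicate block were likewise not run, nor were the motif settings. With the depth unknown, a segment without a region cannot be called closed.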
